A study of Mus musculus and Homo sapiens with 34 samples.

Results

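The genes described here are 9 sensors of nucleic acids and their close partners: DDX58, IFIH1, DHX58, MAVS, EIF2AK2, ZBP1, TLR3, DDX41 and ADAR. They were matched by symbol, ignoring case, in the count table of each species, and all 9 were found among 55450 mouse genes and among 58870 human genes. The comparison was between spheroids grown with SIS ECM, a decellularised extracellular matrix whose abbreviation usually stands for small intestinal submucosa, and spheroids of cells alone. Of the mouse colorectal carcinoma lines, CT26 had 6 libraries with SIS ECM and 6 of cells alone, and MC38 had 5 of each. The human colorectal carcinoma line HT29 had 6 of each. No line carried an engineered allele or a drug treatment in the labels, all libraries were collected on day 7, and each tube pooled several spheroids. Every group was seeded from 1 established cancer cell line, with no host cells added according to the labels.

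In mammalian cells, RNA that is double-stranded or carries a triphosphate end is bound by the cytosolic helicases RIG-I (DDX58) and MDA5 (IFIH1), which signal through the mitochondrial adaptor MAVS to induce type I interferon. LGP2 (DHX58) is a related helicase that lacks their signalling domains and tunes both. Most genes of this system are themselves induced by interferon, so that their transcript levels often move together, and colorectal cancer cells can carry endogenous RNA that these proteins detect.

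The 9 genes were chosen by function with their log2 fold changes between SIS ECM and cells alone in view, from earlier results of these libraries. Their fitted changes in that comparison are therefore given as a description, without p-values, and support nothing by themselves. A gene is called when its adjusted p in edgeR's quasi-likelihood test was below 0.05, adjusted over all genes tested in that comparison. Levels are CPM, that is counts relative to a library's total, scaled between libraries, and changes are log2 fold changes ± SE. Levels of different species are not compared. Of the 9 genes, Ddx41, Dhx58, Eif2ak2, Adar and Tlr3 overlap a mouse gene on the opposite strand, whose reads could not be told apart without a strand setting. These partners had at most 1.73 CPM in any of 22 libraries, and that of Ddx41 had 0.

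Library totals ran from 15826190 to 24196115 estimated counts in the 22 mouse libraries and from 25515239 to 37001506 in the 12 human libraries. Mouse libraries differed by their number: the share of mitochondrially encoded transcripts was 8.07 ± 0.36% for numbers 4 to 6 of CT26, against 4.41 ± 0.60% for numbers 1 to 3 (SD, n = 6 each). In MC38 the share was 6.28 ± 0.60% and 4.15 ± 0.72% (SD, n = 5 each). The share also differed between cultures within numbers 1 to 3, in opposite directions: it ran from 3.72 to 4.23% in CT26 with SIS ECM and from 4.82 to 5.01% in CT26 cells alone, but from 4.92 to 4.94% in MC38 with SIS ECM and from 3.42 to 3.75% in MC38 cells alone. Within numbers 4 to 6 the cultures overlapped in both lines. In HT29 with SIS ECM, libraries 1 and 4 stood apart at 6.61 and 6.88%, above 5.33 to 5.80% in the other 4, while cells alone ran from 6.15 to 6.80%. Epithelial identity was checked with 8 markers, whose summed level ran from 8130 to 9910 CPM in HT29 with SIS ECM and from 8780 to 10100 CPM in HT29 cells alone. It ran from 11.9 to 23.5 CPM in CT26 with SIS ECM and from 6.62 to 11.0 CPM in CT26 cells alone, with Epcam, Cdh1 and Cdx1 at 0 counts. Most of it was Krt18, at 15.6 CPM with SIS ECM and 7.27 CPM in cells alone. In MC38 it was at most 1.29 CPM with SIS ECM and at most 0.965 CPM in cells alone, with Epcam and Cdx2 at 0 counts. The defining epithelial marker Epcam was thus at 0 counts in both mouse lines. The summed level of 8 leukocyte markers, of which 7 were found in the human table, was at most 0.638 CPM in every library. That of 6 endothelial markers was at most 0.835 CPM in CT26 and at most 0.568 CPM in HT29. In MC38 it ran from 1.73 to 3.91 CPM with SIS ECM and from 3.36 to 5.19 CPM in cells alone, and the 1 endothelial marker tested there was not called. The summed level of 8 fibroblast markers in MC38 ran from 2450 to 3990 CPM with SIS ECM and from 3350 to 4300 CPM in cells alone, which are genes that cancer cells of mesenchymal character also express. In CT26 it ran from 465 to 717 CPM with SIS ECM and from 535 to 818 CPM in cells alone. Of these markers, Col1a1 fell in MC38 (0.786 ± 0.262 CPM with SIS ECM, 7.50 ± 0.817 CPM in cells alone; edgeR adjusted p = 1.74e-06) and Dcn rose in CT26 (3.99 ± 0.753 CPM with SIS ECM, 2.55 ± 0.359 CPM in cells alone; edgeR adjusted p = 0.0191). The part of these markers and of the mitochondrial share in the results was not tested. In such bulk samples, fewer cells of a type and less RNA per cell cannot be told apart.

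Mouse promoter sequence from RefSeq (build GRCm38.p6, the same assembly as mm10) was found for 7 of the 9 genes. The stretches shown first are those of the sensors that hold the letters GAAANNGAAA, the core of the interferon-stimulated response element, in either strand within 250 bases before to 50 bases after an annotated start. Capitals mark the match.
Ddx58, chr4:40239804-40239833, minus strand: cctgaggcagTTTCGATTTCctatggccag
Ifih1, chr2:62646206-62646235, minus strand: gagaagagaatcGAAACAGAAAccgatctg
Eif2ak2, chr17:78882535-78882564, minus strand: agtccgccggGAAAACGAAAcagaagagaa

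In Ddx58 the match is on the opposite strand, 3 to 12 bases after the start, and in Ifih1 and Eif2ak2 it is on the same strand, 33 to 42 and 19 to 28 bases after it. The motif occurred in 3 of the 7 genes, which have 9 windows in all, and in 1131 of all 32851 mouse windows of that length (3.44%). The STAT-type motif TTCNNNGAA was found in Adar and Eif2ak2 among the 7 genes, and in 8.30% of all windows. A match describes letters only. Ddx41 had neither motif, and its 250 bases before the start are shown because its changes with SIS ECM were alike in both mouse lines.
Ddx41, chr13:55536659-55536908, minus strand: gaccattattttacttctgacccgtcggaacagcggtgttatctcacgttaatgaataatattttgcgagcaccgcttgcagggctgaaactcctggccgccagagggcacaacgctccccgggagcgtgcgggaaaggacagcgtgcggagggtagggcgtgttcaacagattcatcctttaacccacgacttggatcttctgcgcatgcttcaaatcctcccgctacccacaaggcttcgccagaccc

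Culture with SIS ECM was accompanied by higher transcript levels of several sensors in every line. In CT26 5 of the 9 genes were called, all higher: Zbp1, Dhx58, Ddx41, Ifih1 and Ddx58. In MC38 3 were called, all higher: Ddx41, Zbp1 and Ddx58. In HT29 6 were called, all higher: ZBP1, DDX58, IFIH1, EIF2AK2, DHX58 and ADAR. Of all genes tested, 6.15% were called higher in CT26, 3.82% in MC38 and 7.75% in HT29. Every SIS ECM library lay above every library of cells alone for 4 of the 9 genes in CT26, 3 in MC38 and 5 in HT29, beside 3.87%, 3.72% and 3.64% of all genes tested. Because this contrast was in view when the genes were proposed, nothing is read from these shares. The median log2 fold change of the 9 genes was 0.76 in CT26, 0.15 in MC38 and 0.25 in HT29, and that of all genes tested lay between -0.01 and 0.01 in every line. DDX58 and ZBP1 were called higher in all 3 lines, as were 15 of 8853 genes tested in all of them (0.169%).

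**Figure D1:**
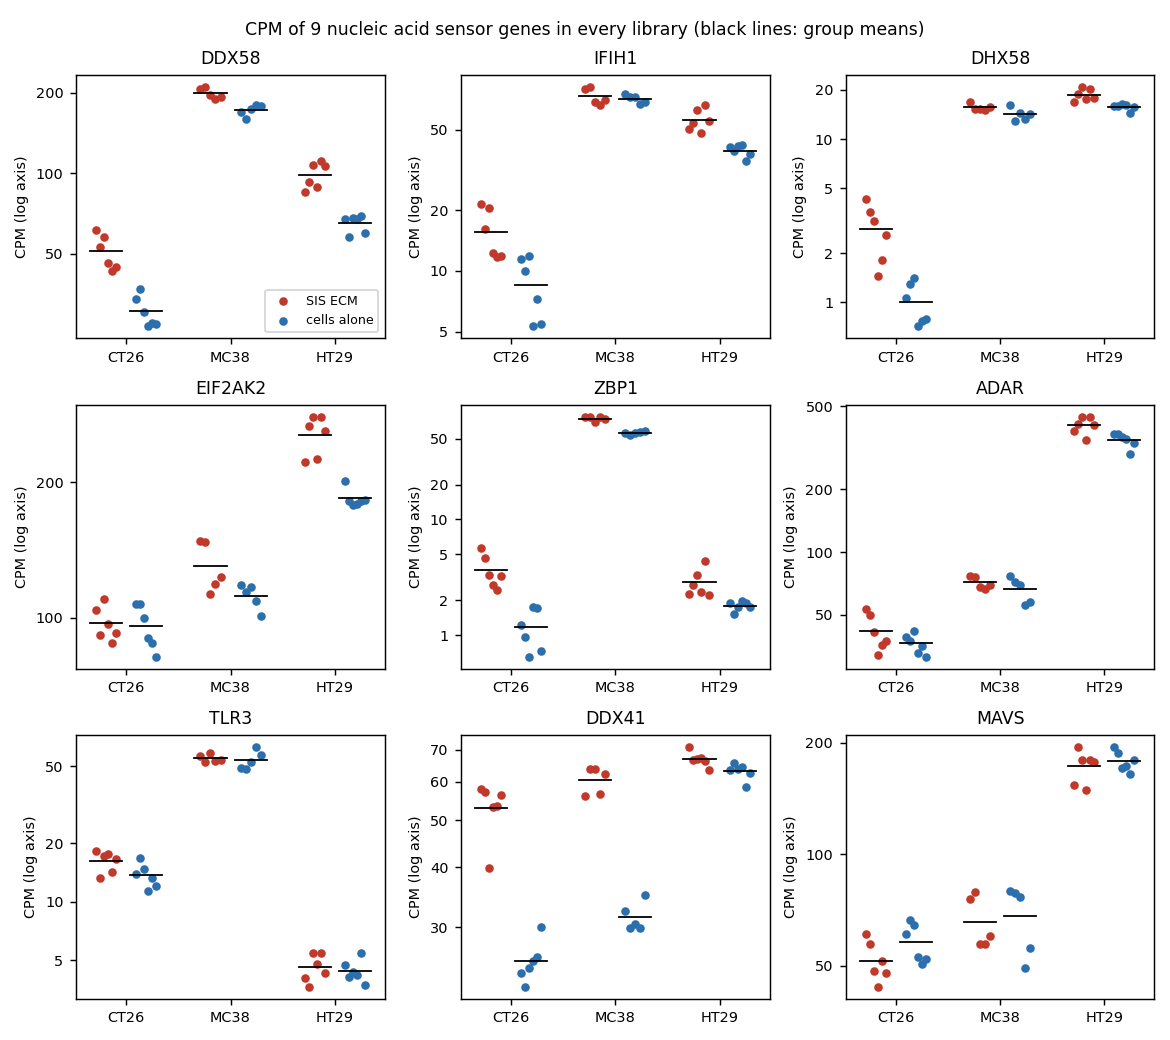
Level of each of the 9 genes in CPM (vertical log axis) in every library, by line and culture, with SIS ECM left of cells alone; each point is 1 library and black lines are group means. DDX41 stands apart between cultures in CT26 and MC38 and not in HT29, while DDX58 stands apart in all 3 lines.

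**Figure D2:**
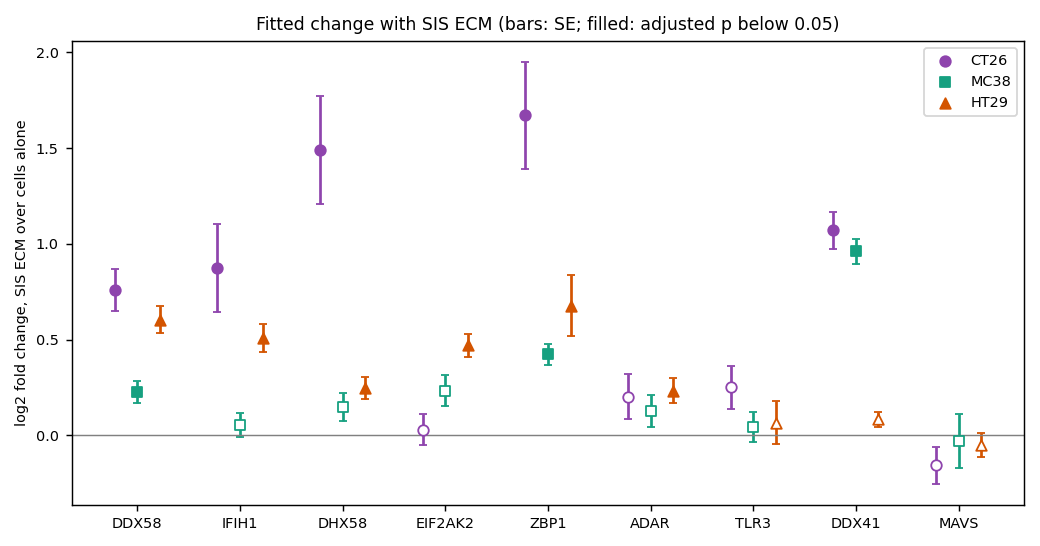
Log2 fold change of SIS ECM over cells alone for the 9 genes in CT26, MC38 and HT29; bars are the SE of the fit and filled symbols are genes with an adjusted p below 0.05. ZBP1 has the highest value in CT26 (1.67), DDX41 the highest in MC38 (0.96) and MAVS lies slightly below 0 in each line, with a sign that changes in MC38 and HT29 under other fits.

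Among the cytosolic RNA helicases, Ddx58 encodes RIG-I, the sensor of short double-stranded and triphosphate-bearing RNA. It lies on mouse chromosome 4 (chr4:40203773-40239828, mm10, minus strand). In CT26 it had a lowest, median and highest level of 43.1, 49.6 and 61.3 CPM with SIS ECM, and of 26.7, 28.8 and 36.8 CPM in cells alone. The groups did not overlap, and the change was 0.76 ± 0.11.

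In MC38 Ddx58 stood at 207, 211, 196, 189 and 192 CPM with SIS ECM and at 169, 159, 174, 180 and 178 CPM in cells alone. The groups were separate but close, and the change was 0.23 ± 0.06. That call ended when any of 6 of the 10 libraries was left out: cells-alone libraries 1, 2 or 3, or SIS ECM libraries 3, 4 or 6. It also ended with the replicate number as a block, at a change of 0.21. In HT29 DDX58 had 85.0, 99.3 and 111 CPM with SIS ECM (lowest, median and highest) and 57.6, 67.3 and 69.4 CPM in cells alone, again without overlap, and the change was 0.60 ± 0.07.

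Ifih1 encodes MDA5, the sensor of long double-stranded RNA (chr2:62595798-62646255, minus strand). In CT26 it had a lowest, median and highest level of 11.7, 14.1 and 21.5 CPM with SIS ECM, and of 5.32, 8.60 and 11.9 CPM in cells alone. The change was 0.87 ± 0.23. The cultures overlapped, and within each culture libraries 1 to 3 were higher than libraries 4 to 6. Within libraries 1 to 3 the mean was 19.4 CPM with SIS ECM and 11.1 CPM in cells alone, and within libraries 4 to 6 it was 11.9 CPM with SIS ECM and 6.02 CPM in cells alone. For each of the 6 numbers the SIS ECM library lay above the cells-alone library of that number. The call over all libraries ended without cells-alone library 4, 5 or 6 or without SIS ECM library 1, 2 or 3, while the change over omissions ran from 0.76 to 0.987. With the replicate block (0.89), and in each range alone (0.79 and 1.00), it was called. In MC38 Ifih1 averaged 73.1 ± 7.06 CPM with SIS ECM and 71.3 ± 3.44 CPM in cells alone (SD, n = 5 each), a change of 0.05 ± 0.07 that was not called. In HT29 the levels did not overlap, with 48.2, 54.4 and 66.5 CPM with SIS ECM (lowest, median and highest) and 34.9, 39.9 and 41.9 CPM in cells alone. The change was 0.51 ± 0.07.

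Dhx58, which encodes LGP2 (chr11:100694884-100704271, minus strand), was the lowest of the 9 genes per kilobase in both mouse lines. In CT26 it had a lowest, median and highest level of 1.46, 2.87 and 4.32 CPM with SIS ECM, and of 0.714, 0.931 and 1.41 CPM in cells alone. The groups were separate by a narrow gap, and the change was 1.49 ± 0.28. In MC38 Dhx58 averaged 15.6 ± 0.688 CPM with SIS ECM and 14.3 ± 1.25 CPM in cells alone (SD, n = 5 each), a change of 0.15 ± 0.07 that was not called. In HT29 it averaged 18.7 ± 1.64 CPM with SIS ECM and 15.8 ± 0.651 CPM in cells alone (SD, n = 6 each). That change of 0.25 ± 0.06 was called and the groups did not overlap.

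The adaptor gene MAVS, through which RIG-I and MDA5 signal (mouse chr2:131234063-131248025, plus strand), was called in no line. Its change was -0.16 ± 0.10 in CT26, -0.03 ± 0.14 in MC38 and -0.05 ± 0.06 in HT29. In CT26 it averaged 51.5 ± 6.46 CPM with SIS ECM and 57.8 ± 6.95 CPM in cells alone, and in HT29 173 ± 17.7 CPM with SIS ECM and 179 ± 11.2 CPM in cells alone (SD, n = 6 each). In MC38 its libraries fell into levels by number: with SIS ECM, libraries 1 and 3 had 75.6 and 79.2 CPM and libraries 4 to 6 had 57.0, 57.1 and 59.9 CPM. In MC38 cells alone, libraries 1 to 3 had 79.5, 78.5 and 76.6 CPM and libraries 4 and 5 had 49.2 and 55.6 CPM. The cultures thus overlapped, and the levels within a culture differed more than those between cultures.

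Eif2ak2 encodes PKR, a kinase that halts translation when it binds double-stranded RNA (chr17:78852564-78882573, minus strand). In CT26 it averaged 97.1 ± 8.32 CPM with SIS ECM and 95.7 ± 10.7 CPM in cells alone (SD, n = 6 each), a change of 0.03 ± 0.08. In MC38 it stood at 148, 147, 113, 119 and 123 CPM with SIS ECM and at 118, 114, 117, 109 and 101 CPM in cells alone. That change of 0.23 ± 0.08 was not called over all libraries. It was called with the replicate number as a block (0.25 ± 0.07), in libraries 1 to 3 alone (0.34 ± 0.05) and in libraries 4 to 6 alone (0.18 ± 0.06). In HT29 EIF2AK2 had a lowest, median and highest level of 222, 263 and 280 CPM with SIS ECM, and of 178, 182 and 201 CPM in cells alone. The groups were separate and the change was 0.47 ± 0.06.

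Zbp1 encodes a sensor of nucleic acids in the Z conformation that can start necroptosis through RIPK3 (chr2:173206612-173218923, minus strand). In CT26 it had a lowest, median and highest level of 2.47, 3.25 and 5.71 CPM with SIS ECM, and of 0.654, 1.10 and 1.75 CPM in cells alone. These low levels did not overlap, and the change was 1.67 ± 0.28. The size differed by library number, at 2.27 ± 0.30 in libraries 1 to 3 and 1.02 ± 0.28 in libraries 4 to 6. In MC38 Zbp1 stood at 76.5, 77.2, 69.1, 76.2 and 73.4 CPM with SIS ECM and at 56.0, 53.8, 56.3, 57.3 and 58.0 CPM in cells alone. Every SIS ECM library lay above every library of cells alone, and the change was 0.42 ± 0.05. In 1 fit of all mouse libraries, in which both lines share an estimate of the spread, the call on Zbp1 ended at a change of 0.40. In HT29 ZBP1 was low, at 2.23, 2.54 and 4.38 CPM with SIS ECM (lowest, median and highest) and 1.54, 1.82 and 1.98 CPM in cells alone, with a change of 0.68 ± 0.16.

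Adar encodes the enzyme that edits adenosine to inosine in double-stranded RNA and so limits the sensing of a cell's own RNA (chr3:89715022-89753446, plus strand). Over all libraries it was called in HT29 and in neither mouse line unless a term for the number ranges was added, with which it was called in CT26 (0.19) and in MC38 (0.18). In HT29 it stood at 405 ± 37.6 CPM with SIS ECM and 345 ± 27.2 CPM in cells alone (SD, n = 6 each), a change of 0.23 ± 0.07. The groups overlapped, and the call ended without SIS ECM library 3 or without SIS ECM library 5. The change was 0.20 ± 0.12 in CT26 and 0.13 ± 0.08 in MC38. Tlr3 encodes the endosomal receptor for double-stranded RNA (chr8:45395665-45411080, minus strand) and was called in no line. It averaged 16.2 ± 2.03 CPM in CT26 with SIS ECM and 13.7 ± 1.98 CPM in CT26 cells alone (SD, n = 6 each). Its change was 0.25 ± 0.11 in CT26, 0.04 ± 0.08 in MC38 and 0.07 ± 0.11 in HT29.

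Ddx41 encodes a helicase that has been described as a sensor of cytosolic DNA acting through STING and that also takes part in splicing (chr13:55530410-55536658, minus strand). In CT26 it stood at 58.0, 57.1, 39.9, 53.3, 53.6 and 56.4 CPM with SIS ECM and at 24.1, 22.6, 24.7, 25.6, 26.0 and 30.1 CPM in cells alone. In MC38 it stood at 56.2, 63.8, 63.9, 56.6 and 62.3 CPM with SIS ECM and at 32.4, 29.9, 30.5, 29.9 and 35.0 CPM in cells alone. Neither line had any overlap, and SIS ECM library 3 of CT26 lay well below its group. The change was 1.07 ± 0.10 in CT26 (2.09-fold) and 0.96 ± 0.07 in MC38 (1.95-fold). In HT29 DDX41 averaged 66.9 ± 2.39 CPM with SIS ECM and 63.1 ± 2.39 CPM in cells alone (SD, n = 6 each), and the change of 0.09 ± 0.04 was not called.

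The changes in CT26 and MC38 were also fitted within each range of library numbers, since the mitochondrial share differed between the ranges. Ddx41 changed by 1.12 and 1.02 in CT26 and by 0.95 and 0.93 in MC38, in libraries 1 to 3 and libraries 4 to 6. Ddx58 in CT26 changed by 0.77 and 0.73, and Dhx58 by 1.55 and 1.37. In MC38 Ddx58 changed by 0.32 in libraries 1 to 3 and by 0.12 in libraries 4 to 6, where it was not called. Adar in MC38 was called in libraries 4 to 6 alone (0.28) and not in libraries 1 to 3 (0.07), and Tlr3 in CT26 likewise (0.43 and 0.09). In HT29, fits of 3 libraries per culture did not call DHX58 (0.24 and 0.25), ZBP1 (0.67 and 0.68) or ADAR (0.18 and 0.29). SIS ECM libraries 1 and 4 of HT29 held the lowest SIS ECM levels of DDX58 (85.0 and 88.9 CPM), IFIH1 (50.1 and 48.2 CPM), EIF2AK2 (222 and 225 CPM), DHX58 (16.8 and 17.6 CPM) and ADAR (381 and 346 CPM). The same libraries held the lowest of MAVS (154 and 149 CPM) and the highest of DDX41 (70.9 and 67.4 CPM), neither of them called. For ZBP1 and TLR3 these libraries were not together at either end. Left out together, a choice made after seeing the data, they left 6 genes called, at changes of 0.69 for DDX58, 0.60 for IFIH1, 0.56 for EIF2AK2, 0.31 for DHX58, 0.81 for ZBP1 and 0.30 for ADAR. The part of the number ranges in the changes over all libraries was not tested beyond these fits.

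**Figure D3:**
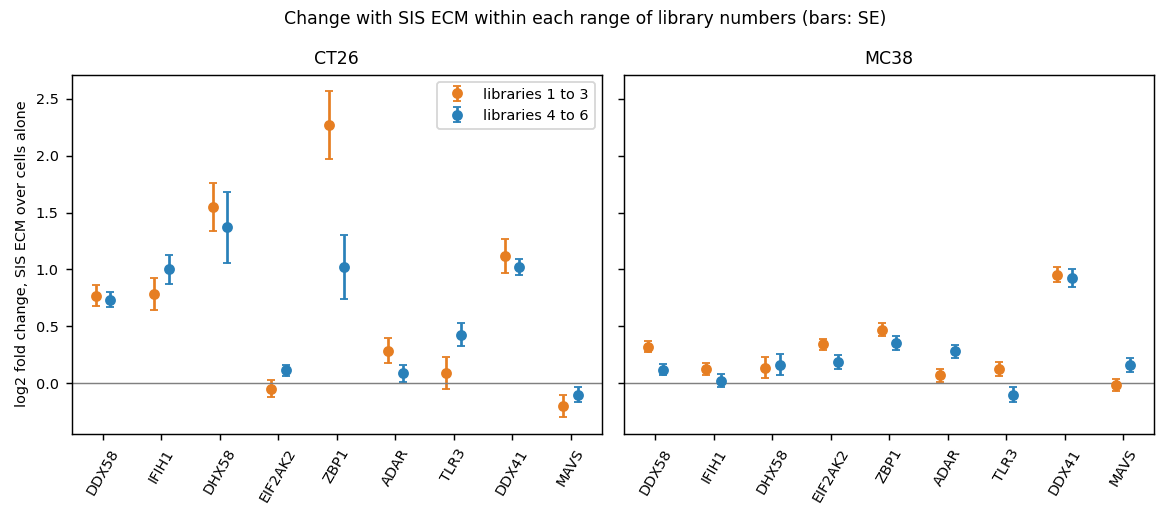
Log2 fold change of SIS ECM over cells alone for the 9 genes in CT26 and MC38, fitted separately in libraries 1 to 3 and libraries 4 to 6; bars are the SE of each fit. Ddx41 has like values in both ranges of both lines, whereas Zbp1 in CT26 is at 2.27 in libraries 1 to 3 and at 1.02 in libraries 4 to 6.

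Without SIS ECM, MC38 spheroids carried far more transcript of Zbp1, Dhx58, Ifih1, Ddx58 and Tlr3 than CT26 spheroids did. The 9 genes were not chosen by this difference. Its cells-alone libraries were part of the SIS ECM comparisons in view at that choice, so it is not independent of it. The median difference over the 9 genes was 1.97 on the log2 scale, and that over all genes tested was 0.05. Zbp1 averaged 56.3 ± 1.60 CPM in MC38 (n = 5) and 1.18 ± 0.479 CPM in CT26 (SD, n = 6), a difference of 5.58 ± 0.16 or 48.0-fold (adjusted p = 3.24e-13 by edgeR). Dhx58 was 13.9-fold higher (14.3 ± 1.25 CPM in MC38, 1.01 ± 0.293 CPM in CT26; edgeR adjusted p = 1.05e-11). Ifih1 was 8.19-fold higher, at 71.3 ± 3.44 CPM in MC38 and 8.57 ± 2.95 CPM in CT26 (edgeR adjusted p = 1.45e-09). All 5 MC38 libraries lay above all 6 CT26 libraries for these genes.

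Ddx58 was 5.64-fold higher, at 172 ± 8.46 CPM in MC38 and 30.4 ± 4.12 CPM in CT26 (edgeR adjusted p = 5.6e-12). Tlr3 was 3.93-fold higher (54.0 ± 6.12 CPM in MC38, 13.7 ± 1.98 CPM in CT26; edgeR adjusted p = 5.58e-10) and Adar 1.81-fold higher (66.4 ± 9.16 CPM in MC38, 36.5 ± 3.83 CPM in CT26; edgeR adjusted p = 1.25e-06). These groups did not overlap either. Ddx41 differed less, by 0.30 ± 0.08 (31.5 ± 2.21 CPM in MC38, 25.5 ± 2.54 CPM in CT26; edgeR adjusted p = 0.00189), with overlap. Eif2ak2 differed by 0.22 ± 0.08 (edgeR adjusted p = 0.0245), a call that ended without CT26 library 4, 5 or 6 (adjusted p up to 0.058). Mavs differed by 0.22 ± 0.13 (edgeR adjusted p = 0.124) and was not called. It was called with the number as a block, at 0.17 (adjusted p = 0.0162), and without MC38 cells-alone library 4 (adjusted p = 0.0153). Mavs was also called with a term for the number ranges (0.168, edgeR adjusted p = 0.00353) and in libraries 1 to 3 alone (0.284, adjusted p = 7.12e-05). In libraries 4 to 6 alone it was not called (0.0666, edgeR adjusted p = 0.359). In all, 8 of the 9 genes were called higher in MC38 and 6 had separate groups, beside 42.3% and 36.0% of all genes tested. Each of these lines is a single line, so the difference is one between 2 cell lines and not between kinds of tumour.

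**Figure D4:**
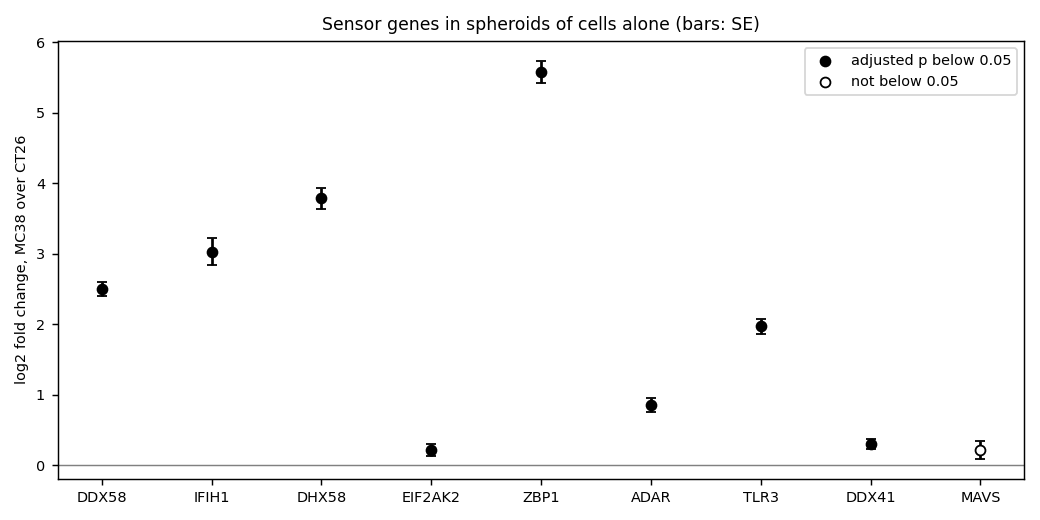
Log2 fold change of MC38 over CT26 in spheroids of cells alone for the 9 genes; bars are the SE of the fit and the open symbol is the gene whose adjusted p was not below 0.05. Zbp1 is highest at 5.58, and Eif2ak2, Ddx41 and Mavs lie at 0.22 to 0.30.

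Per kilobase of annotated exon, the order of the mouse genes differed between the lines. In MC38 with SIS ECM, Ddx58 had 28.2 ± 1.39 CPM per kilobase, Eif2ak2 25.5 ± 3.25 and Ddx41 22.5 ± 1.44 (SD, n = 5 each). In MC38 cells alone Ddx58 had 24.4 ± 1.20, Eif2ak2 21.9 ± 1.35 and Mavs 20.3 ± 4.29, followed by Zbp1 at 15.9 ± 0.453 and Ddx41 at 11.7 ± 0.821 (SD, n = 5 each). In CT26 with SIS ECM, Ddx41 had 19.7 ± 2.50 CPM per kilobase, Eif2ak2 19.0 ± 1.63 and Mavs 15.4 ± 1.93. In CT26 cells alone Eif2ak2 had 18.7 ± 2.09, Mavs 17.3 ± 2.08 and Ddx41 9.49 ± 0.946 CPM per kilobase (SD, n = 6 each). Neighbours in the order often lay within their spread, such as Ddx41 and Eif2ak2 in CT26 with SIS ECM, while Ddx58 stood well below Mavs there (7.24 ± 1.07).

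The size of the response to SIS ECM was also set side by side between lines. Because these responses were in view when the genes were chosen, their differences are a description, given without p-values, and nothing is read from which of them were called. The comparisons share libraries with one another and with those above. The fitted difference of MC38 minus CT26 was -1.36 ± 0.28 for Dhx58, -1.27 ± 0.26 for Zbp1, -0.54 ± 0.13 for Ddx58 and -0.83 ± 0.26 for Ifih1. These 4 of the 9 genes were called, beside 8.27% of all genes tested. The call on Ifih1 ended in 17 of 22 omissions of a single library, in which the difference ran from -0.939 to -0.712. It was made with the replicate block (-0.85), with a term for the number ranges (-0.80) and in each range alone (-0.67 and -0.98). The call on Zbp1 ended in libraries 4 to 6 alone, at -0.67. Tlr3 was not called over all libraries (-0.215 ± 0.14) and was called in libraries 4 to 6 alone (-0.53). Eif2ak2 was called with the term for number ranges (0.232) and in libraries 1 to 3 alone (0.376), and Mavs with the term (0.225). These differences were positive, and neither gene was called over all libraries. The responses of Ddx41 differed by -0.12 ± 0.12, with a 95% interval from -0.36 to 0.12.

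The responses of HT29 and of each mouse line were set side by side over genes whose symbols match between species, again as a description. The fitted difference of HT29 minus CT26 was -1.27 ± 0.22 for DHX58, -1.03 ± 0.28 for ZBP1, -0.997 ± 0.10 for DDX41 and 0.43 ± 0.10 for EIF2AK2, and these 4 were called, beside 10.8% of all genes tested. That for ZBP1 was -0.36 in libraries 4 to 6 alone, where it was not called, and IFIH1 was called as well with the number as a block (-0.41). For HT29 minus MC38, DDX41 was the 1 gene of the 9 that was called (-0.88 ± 0.10), beside 5.92% of all genes tested. The difference for DDX58 was 0.37 ± 0.12, and with the block DDX58 (0.37) and IFIH1 (0.42) were called.

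Other genes of the pathway were read from lists of downstream effectors, adaptors, regulators and related sensors. These lists were also chosen with earlier results of these data known. Their counts, changes and p-values, here and below, are therefore a description and support nothing by themselves. Of all genes tested, 6.15% were called higher in CT26, 3.82% in MC38 and 7.75% in HT29. Called in either direction were 1135 of 12269 in CT26, 1206 of 13146 in MC38 and 2058 of 15207 in HT29. The median change of all genes tested was 0.008 in CT26, 0.006 in MC38 and -0.005 in HT29. Among 11 effectors of double-stranded RNA, which bind foreign RNA or adjust translation, 6 rose and 2 fell in CT26, with a median change of 0.96. The oligoadenylate synthetase Oas2 rose by 1.68 ± 0.13 (20.1 ± 2.76 CPM with SIS ECM, 6.34 ± 1.14 CPM in cells alone; edgeR adjusted p = 1.7e-06). The RNA-binding inhibitor of translation Ifit1 rose by 0.96 ± 0.12 (edgeR adjusted p = 0.000171) and Oas1a by 1.19 ± 0.17 (adjusted p = 0.000554). The members that fell were Ifit2 (-0.47) and Ppp1r15b (-0.33). In HT29 8 of the 11 rose and none fell, with a median of 0.40, led by IFIT1 (0.80 ± 0.08, edgeR adjusted p = 1.78e-06), ISG15 (0.53 ± 0.06, adjusted p = 9.12e-06) and OAS2 (0.70 ± 0.08, adjusted p = 1.24e-05). In MC38 none of the 11 rose and 1 fell, Ppp1r15a (-0.67 ± 0.17, edgeR adjusted p = 0.0317), with a median of 0.08. At an unadjusted p below 0.05, edgeR had 1 higher in MC38 and 1 lower in HT29, and DESeq2 called 0 of either.

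Among 17 adaptors and kinases, 2 of 16 tested rose in CT26: the interferon regulatory factor Irf7 (2.09 ± 0.37, edgeR adjusted p = 0.00264) and the Toll-like receptor adaptor Myd88 (0.48 ± 0.10, adjusted p = 0.00862). In HT29 IRF7 (0.35 ± 0.06, edgeR adjusted p = 0.000536) and the kinase IKBKE (0.29 ± 0.06, adjusted p = 0.00214) rose. The necroptosis kinase RIPK3, with which ZBP1 acts, fell in HT29 (-0.20 ± 0.06, edgeR adjusted p = 0.0232) and in MC38 (-0.46 ± 0.09, adjusted p = 0.00912), where it was the single member called of 17. In CT26 Ripk3 had 0 counts in every library.

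Of the regulators of RNA sensors, 3 of 19 tested rose in CT26, 1 of 20 in MC38 and 6 of 20 in HT29, and none was called lower by edgeR or DESeq2 (1, 1 and 0 were lower at an unadjusted p below 0.05). The helicase gene Ddx60, which supports RIG-I, rose by 1.31 ± 0.09 in CT26 (edgeR adjusted p = 9.4e-07) and DDX60 by 0.44 ± 0.05 in HT29 (adjusted p = 1.47e-05). Nlrc5 (1.06 ± 0.14, edgeR adjusted p = 0.00026) and the ubiquitin ligase Trim25 (0.26 ± 0.06, adjusted p = 0.0208) rose in CT26, and the kinase gene Riok3 (0.24 ± 0.06, adjusted p = 0.026) rose in MC38. The ubiquitin ligase RNF125 (0.30 ± 0.05, edgeR adjusted p = 0.000789) and the antiviral zinc-finger gene ZC3HAV1 (0.32 ± 0.06, adjusted p = 0.000974) rose in HT29.

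Cytosolic DNA sensors are the class in which DDX41 has been placed. None of the other 10 tested was called by edgeR in CT26, where 1 was higher and 3 were lower at an unadjusted p below 0.05 and DESeq2 called 2 lower. Ifi204, a mouse DNA sensor of the interferon-inducible family, rose in MC38 (21.2 ± 0.893 CPM with SIS ECM, 11.3 ± 2.25 CPM in cells alone; 0.92 ± 0.12, edgeR adjusted p = 0.000622), 1 of 10 tested. In HT29 3 of 10 rose: IFI16 (0.69 ± 0.10, edgeR adjusted p = 0.00024), TMEM173, which encodes STING (0.23 ± 0.05, adjusted p = 0.00347), and DHX36 (0.15 ± 0.05, adjusted p = 0.0314). Tmem173 in CT26 averaged 17.8 ± 2.92 CPM with SIS ECM and 20.6 ± 3.00 CPM in cells alone and was not called.

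The list of endosomal receptors and partners also holds the cell-surface receptor Tlr4 and its co-receptor Cd14. Of its 7 genes, 2 were tested in CT26, 4 in MC38 and 3 in HT29. The endosomal receptors Tlr7, Tlr8 and Tlr9 were too low to be tested in CT26 and MC38. Cd14 was called higher in CT26 (0.54 ± 0.10, edgeR adjusted p = 0.00296) and Tlr4 in MC38 (0.34 ± 0.08, adjusted p = 0.0158). In HT29 TLR4 (0.28 ± 0.06, edgeR adjusted p = 0.00336) and the trafficking factor UNC93B1 (0.18 ± 0.05, adjusted p = 0.0205) were called higher. Of 11 genes that clear or edit a cell's own nucleic acids, Samhd1, a nucleotide hydrolase, rose in CT26 (0.32 ± 0.06, edgeR adjusted p = 0.00357) with the editing gene Adarb1 (0.45 ± 0.11, adjusted p = 0.0176). In HT29 SAMHD1 rose (53.9 ± 5.15 CPM with SIS ECM, 31.2 ± 2.64 CPM in cells alone; 0.79 ± 0.07, edgeR adjusted p = 7.2e-07) with the mitochondrial RNA exonuclease PNPT1 (0.14 ± 0.04, adjusted p = 0.0422). None of the 11 was called in MC38 by edgeR or by DESeq2, with 1 higher at an unadjusted p below 0.05.

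Transcripts of the interferons that RIG-I and MDA5 induce were close to absent. Ifnb1 summed to 2 counts over 6 CT26 libraries with SIS ECM and to 0 counts over 6 of cells alone, which allows up to 3 counts. In MC38 it summed to 0 counts with SIS ECM, which allows up to 3, and to 8 counts in cells alone, spread over 4 of the 5 libraries. In HT29 IFNB1 summed to 14 counts with SIS ECM and to 8 in cells alone, and the lambda interferon gene IFNL1 to 55 counts with SIS ECM and 36 in cells alone. No test was run on these few counts. Of the list of 10, only IFNE in HT29 was abundant enough to be tested (848 counts with SIS ECM, 867 in cells alone), and it was not called.

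The genes whose levels followed the sensors most closely were found by Pearson correlation of log2 CPM over all libraries of a line, as a description in which the libraries share culture, number range and depth. In HT29 (12 libraries), DDX58 followed IFIT1 (r = 0.992), IFI44, GBP4, USP18 and DDX60, and IFIH1 followed OAS2 (r = 0.987), PIK3AP1, MX2, SP110 and EPSTI1. In CT26 (12 libraries), Ddx58 followed Parp9 (r = 0.99), Ifi44, Cask, Arl4c and Oasl2, and Ifih1 followed Parp12 (r = 0.98), Gbp2, Thrb, Sqor and Mrgpre. In MC38 (10 libraries), the genes nearest to Ddx58 were Mmp3 (r = 0.988), Ptcd3, Rab5if, Ngly1 and Anxa5, and those nearest to Ifih1 were Fam32a (r = 0.976), Poc5, Kansl2, Nsun4 and Mfap3. Ddx41 followed other genes than these: Nupr1 (r = 0.99), Tmed3, 2410006H16Rik, Fam102a and H2-T22 in CT26, and Tmem176b (r = 0.987), Bcl6b, Bok, Pdik1l and Cacna1c in MC38. In HT29 its nearest genes were ASF1B (r = 0.958), MYADM, SYNGR2, ACTB and CDT1.

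The authors' deposited table of SIS ECM against cells alone lists values for all 9 genes in each line. In the authors' deposited table Ddx41 changed by 1.00 in CT26 and 1.04 in MC38, and DDX41 by 0.08 in HT29. The authors' deposited table placed Eif2ak2 below 0.05 in MC38 (0.23) and not Ddx58 (0.21), the reverse of the calls given here for those genes. For the other genes and lines the authors' deposited table and the calls given here fell on the same side of 0.05.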

How the data were processed

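The authors deposited 1 table of estimated counts per gene and species, not normalised, for 34 libraries. Per the labels' protocols, RNA was sequenced as read pairs from stranded mRNA libraries pooled within each species. Builds mm10 and hg38 and the tools RSEM 1.3.1, STAR 2.7.0f, cutadapt and limma appear in the submitters' processing notes, with no roles. The sources used here do not state whether reads were counted by strand. Further deposited files hold, per the file headers, log2 fold changes and adjusted p-values of the authors for SIS ECM against cells alone, beside 34 columns of per-sample values that were not used.

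Between 2244 and 2621 values per mouse library and 3811 to 4113 per human library were not whole (tolerance 1e-06), so counts were rounded. Each comparison was fitted over all genes with edgeR 4.0.16 (R 4.3.3), by the two-sided quasi-likelihood F test with TMM scaling, filterByExpr at a minimum count of 10 and Benjamini-Hochberg adjustment at a threshold of 0.05. Responses of CT26 and MC38 were compared over all mouse libraries, and those of HT29 with each mouse line over 16667 genes with matching symbols. CPM use the filtered library size times its TMM factor (0.866 to 1.10), over all libraries of a species. The SE of a fit is the size of the log2 fold change over the square root of its F. Intervals of 95% are the estimate ± 1.96 SE, which is approximate and may be too narrow with so few libraries. Fits were tested on simulated data with known changes. In the SIS ECM comparisons, log2 changes of 1 were called in 89 to 90% of changed genes. Changes of 0.5 were called in 46% for CT26, 55% for MC38 and 71% for HT29. For differences of responses, changes of 0.5 were called in 21 to 46%, so a gene not called may still have changed by that much. A zero sum over a group allows up to 3 counts, for counting error only.

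Alternatives were DESeq2 1.42.0 and its size factors, no filter on low counts, a term for libraries 4 to 6 against 1 to 3, each range alone, 1 fit of all mouse libraries, the replicate number as a block, each library left out in turn and, added after seeing the data, HT29 without SIS ECM libraries 1 and 4. Deviations from group means correlated between same-numbered libraries at 0.222 to 0.484 in 6 pairs of CT26 and 0.188 to 0.321 in 4 pairs of MC38. In HT29 the values were -0.0956 to 0.0646. In CT26 and MC38 the closest cells-alone library was always of the same number range and often of another number. Whether the numbers mark pairs beyond these ranges was not tested. In MC38 the block fit drops SIS ECM library 6 and cells-alone library 2, whose numbers have no partner. With the block, 2281 genes were called in CT26 in place of 1135.

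Nothing in the labels says that the libraries of a group came from separate cultures, so p-values measure only their spread, which may be technical. No 2 libraries were alike within sampling noise (chi-square per degree of freedom 1.89 to 137 in 80 pairs of a group). The 9 genes and the pathway lists were chosen with earlier results of these data known. All 9 were described in every comparison. Of each list, up to 3 genes with the smallest adjusted p among those called in a line were named, with the members that fell in the CT26 effector list and single genes named for their level added after their values were seen. For likeness, DDX58, IFIH1 and DDX41 were each correlated with every tested gene of the line outside the 9, and the 5 genes with the highest r were named.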

Additional observations from a re-analysis of the deposited data

Results flagged for a closer look

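In 3 of 54 groups, 1 library stood apart from the rest by Dixon's test at the 95% level, and chance flags about 1 in 20 groups. Ddx41 was at 39.9 CPM in SIS ECM library 3 of CT26, below the other 5. DHX58 was at 14.5 CPM in cells-alone library 5 of HT29, below its group. EIF2AK2 was at 201.0 CPM in cells-alone library 1 of HT29, above its group and still below every SIS ECM library.

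The response to SIS ECM was called as different in edgeR for 4 of the 9 genes in MC38 minus CT26. For HT29 minus CT26 4 were called, and for HT29 minus MC38 1. These responses were in view when the genes were chosen, so that the values are a description. Of all genes tested, 8.27% were called for MC38 minus CT26, 10.8% for HT29 minus CT26 and 5.92% for HT29 minus MC38. MC38 minus CT26 was -0.54 for DDX58, -0.83 for IFIH1, -1.36 for DHX58 and -1.27 for ZBP1. HT29 minus CT26 was -1.27 for DHX58, 0.43 for EIF2AK2, -1.03 for ZBP1 and -0.997 for DDX41, and HT29 minus MC38 was -0.88 for DDX41. In cells alone, DHX58 was 13.9-fold and ZBP1 48.0-fold higher in MC38 than in CT26, and these libraries are shared with the difference of responses.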

How the results depend on the processing

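DDX41 kept its call in CT26 and MC38 under every alternative run, at 1.03 to 1.14 in CT26 and 0.94 to 1.00 in MC38 when single libraries were left out. Scaling by DESeq2 size factors moved the median change of the 9 genes by at most 0.02. In HT29, 3 libraries per culture give fewer calls.

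Counts of all genes called moved by over 1.5 times as follows. In CT26 (1135) they were 3545 with a term for number ranges, 2281 with the replicate block, 2484 in libraries 1 to 3, 2333 in libraries 4 to 6 and 1763 in 1 fit of all mouse libraries. In MC38 (1206) they were 3246 with the term, 5287 in libraries 1 to 3, 2318 in libraries 4 to 6 and 538 in the fit of all mouse libraries. Single omissions gave 626 to 1948 in MC38: 648, 626, 663 and 1948 without cells-alone library 1, 2, 3 or 4, and 724 and 742 without SIS ECM library 4 or 6. In HT29 (2058) libraries 1 to 3 gave 719, libraries 4 to 6 gave 417, and leaving out SIS ECM libraries 1 and 4 together, an alternative chosen after seeing the data, gave 3617. For MC38 minus CT26 (1165) the term gave 3740 and the ranges 4112 and 2001. For HT29 minus CT26 (1322) the term gave 2834, the block 2035 and libraries 1 to 3 gave 2414. For HT29 minus MC38 (727) the term gave 1882 and libraries 1 to 3 gave 1374. The cause was not tested.

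Of the 9 genes, MC38 had 5 called with the term and 1 in the fit of all mouse libraries, in place of 3. HT29 had 3 in each range, in place of 6. HT29 minus MC38 had 2 by DESeq2, 3 with the term, 3 with the block and 3 in libraries 4 to 6, in place of 1, and 1 to 2 in single omissions. The block changed no call of the 9 genes other than those named with it above.

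All changes whose sign turned were among those not called over all libraries. EIF2AK2 in CT26 was -0.0496 in libraries 1 to 3, and -0.0116 to 0.0666 over omissions. MAVS in MC38 was 0.0758 with the term, 0.0673 with the block and 0.16 in libraries 4 to 6, and -0.125 to 0.0318 over omissions. TLR3 in MC38 was -0.102 in libraries 4 to 6. For MC38 minus CT26, ADAR was 0.19 in libraries 4 to 6 and TLR3, at -0.215 over all libraries, was 0.0214 in libraries 1 to 3 and was called at -0.533 in libraries 4 to 6. MAVS in HT29 was 0.0365 without SIS ECM libraries 1 and 4. For HT29 minus CT26, ADAR was -0.138 in libraries 1 to 3, and -0.0309 to 0.0964 over omissions. For HT29 minus MC38, ADAR was -0.00929 in libraries 4 to 6, TLR3 was -3.11e-05 without a filter on low counts and -0.135 in libraries 1 to 3. Over omissions TLR3 there was -0.041 to 0.096 and MAVS -0.0974 to 0.0752.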
